A study of Danio rerio with 18 samples.

Results

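The data described here compare wild-type zebrafish larvae (*akr1a1a+/+*) incubated with acrolein (ACR) with untreated *akr1a1a+/+* larvae. They comprise 12 of the 18 samples of the series, 6 treated and 6 untreated, and each treated sample was paired with the untreated sample that carries the same replicate number in its title. The 6 remaining samples are untreated larvae lacking akr1a1a, an aldo-keto reductase. All larvae were raised in E3 medium with PTU, which blocks pigmentation, and whole larvae were frozen for RNA extraction at 120 hours post fertilization (hpf). Treatment ran from 24 hpf onwards, and the methods of the study give 10 µM ACR and removal of the chorion at 24 hpf. The study raised a line with an endothelial fluorescent reporter, which the labels of these samples do not mention. Its text describes the untreated samples as pooled larvae of 6 clutches. The labels do not say whether a number marks a clutch shared with the treated sample. Unless stated otherwise, p values set the effect against the spread of the differences within these 6 pairs of samples. In the test used, the spread of each gene was drawn towards a trend across genes.

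ACR is the simplest unsaturated aldehyde and a strong electrophile, which reacts with cysteine, histidine and lysine side chains of proteins and is cleared by conjugation to glutathione and by aldehyde-oxidizing and aldehyde-reducing enzymes. Cells answer electrophiles through the transcription factor Nrf2, which induces glutathione- and thioredoxin-dependent enzymes and ferritin, and answer unfolded protein through heat shock factors, which induce chaperones of the HSP70 and HSP90 families. Ferritin heavy chain oxidizes iron and stores it in a form that cannot drive radical chemistry. The comparison was run to learn how added ACR changes the transcriptome of larvae that still have akr1a1a.

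Total estimated counts lay between 19878464 and 20174607 in untreated and between 20001894 and 20362335 in ACR-treated samples. Genes with a count above 0 numbered 26744 to 26872 and 26776 to 26961, and the 10 most abundant genes took 10.35% to 11.22% and 10.13% to 11.11% of the counts. At this depth, 3 counts correspond to 0.146 to 0.153 CPM, the unit used below, in which each library is scaled to the same total. All untreated samples and treated samples 1 to 3 were sequenced on lane 2, while treated samples 4 to 6 were sequenced on lane 3. Deviations from the group mean were shared within pairs, at correlations across genes of 0.239 to 0.58 in the 6 pairs (mean 0.422). The mean of −0.084 for other combinations follows from centring each group on its own mean and is no separate comparison. All 6 untreated samples correlated most with the treated sample of the same number. The replicate number held 66.6% of the variation across the 12 samples and the treatment 7.58%. These are raw shares of the sum of squares. Noise adds to both, and more to that of the 6 replicate numbers, so neither share alone measures an effect. akr1a1a itself was at 2.34 to 3.44 CPM in untreated and 2.78 to 3.78 CPM in treated larvae.

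Few genes could be called, most of them with small changes. In the paired model, 147 of 23715 genes (0.62%) passed the threshold of 0.05 for the Benjamini-Hochberg adjusted p of the edgeR quasi-likelihood test, and such genes are called below. Of these, 102 (0.43%) were higher and 45 (0.19%) were lower after ACR, and 3157 genes (13.3%) had an unadjusted p under 0.05, where 5% would if no gene changed. At a share of 0.62%, few or no calls are expected in any gene list below. A list without a call therefore says little about its genes. Over all genes tested, 49.6% had a positive and 50.4% a negative log2 fold change, the background for such counts in the lists below. Genes of a list can vary together, so these counts are not independent. Among the called genes, the median log2 fold change was 0.37 for the higher and −0.32 for the lower. At least a 2-fold change was fitted for 18 higher and 5 lower genes, and the smallest change that passed was 0.17 on the log2 scale. The same direction in all 6 pairs was seen for 138 of the 147 genes, a property that 4.1% (higher) and 3.38% (lower) of all genes tested had. The levels of the groups did not overlap for 16 of the higher and 6 of the lower genes, against 0.156% and 0.139% of all genes tested. Most calls rested on the pairing: without the replicate block, 1 gene passed in the same 12 samples, a gene without a symbol (ENSDARG00000113150), with 1155 genes at an unadjusted p under 0.05.

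**Figure D1:**
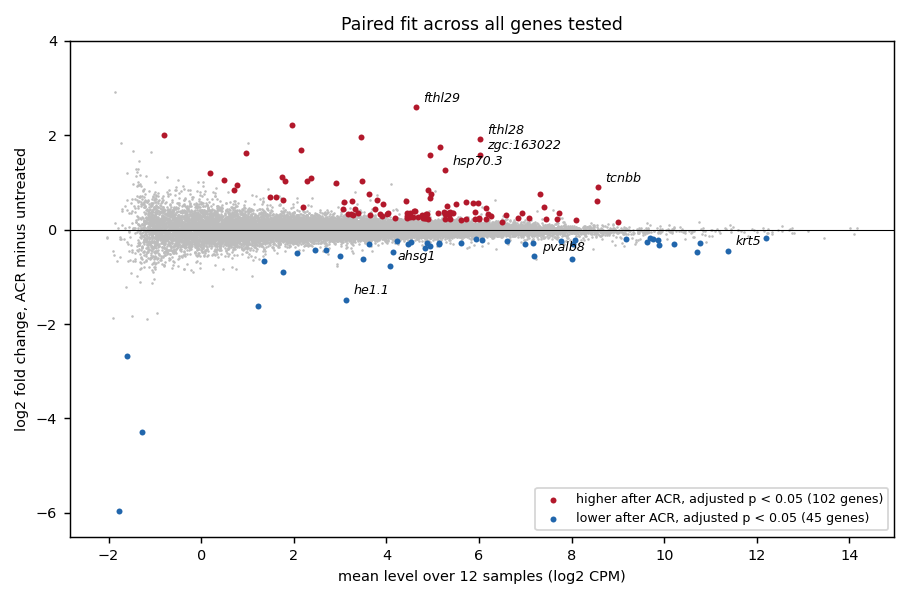
Log2 fold change of ACR-treated against untreated larvae (y axis) by mean level over the 12 samples in log2 CPM (x axis), with 1 point per gene of the 23715 tested. Red points are the 102 genes that were higher and blue points the 45 that were lower at an adjusted p under 0.05; the ferritin gene fthl29 stands highest among the red points, and the 3 blue points below −2 are genes with less than 1 CPM on average.

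Among called genes with a symbol and a mean log2 CPM of at least 1, ferritin heavy chain genes had the 3 largest rises. These were fthl29, fthl28 and fthl31. Of 7 ferritin heavy chain genes tested, 5 rose and 0 fell, and these 5 (fthl27, fthl28, fthl30, fthl31 and fthl29) lie next to each other with no other protein-coding gene between them in the RefSeq annotation of the GRCz12tu assembly. fthl29 (ENSDARG00000113977) was at 3.59, 4.11 and 15.0 CPM (lowest, median and highest of 6 samples) in untreated and at 17.6, 25.9 and 88.0 CPM in treated larvae. The groups did not overlap, and the untreated samples 1 and 2, at 10.9 and 15.0 CPM, were the highest of their group just as the treated samples 1 and 2 were of theirs. The log2 fold change was 2.59 ± 0.07 (SE, adjusted p = 1.22e-10), and the within-pair differences lay between 2.26 and 2.89. Without the replicate block in the same 12 samples its log2 fold change was 2.61 and did not pass (adjusted p = 0.299). It passed without the block when all 18 samples were fitted.

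fthl28 (ENSDARG00000076221) was at 12.7, 18.8 and 65.7 CPM in untreated and at 53.7, 93.1 and 143 CPM in treated larvae, a log2 fold change of 1.91 ± 0.14 (SE, adjusted p = 1.53e-05). Only the untreated sample 1 reached the treated range. fthl31 rose from 8.94, 10.9 and 36.7 CPM to 41.5, 47.5 and 82.6 CPM without overlap (log2 fold change 1.74 ± 0.19, SE, adjusted p = 0.000528). fthl30 rose from 4.45, 13.9 and 35.7 CPM to 21.8, 43.9 and 81.9 CPM (1.58 ± 0.12, SE, adjusted p = 2.06e-05). For these 3 genes the within-pair difference was smallest in pair 1, at 1.13, 0.63 and 1.05, and untreated samples 1 and 2 were the highest of their group. fthl27 rose less, from a median of 182 to 222 CPM (log2 fold change 0.36 ± 0.06, SE, adjusted p = 0.0107), and lost its call without pair 2 (adjusted p = 0.0635). These genes are close copies, so estimated counts may have been split among them.

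The canonical ferritin heavy chain genes did not pass. FTH1 (ENSDARG00000007975) gave −0.05 on the log2 scale (adjusted p = 0.706) and was lower in 4 of 6 pairs. fth1a, per length the most abundant of the family at a median of 1110 TPM in untreated and 1230 TPM in treated larvae, gave 0.14 ± 0.04 on the log2 scale (SE, adjusted p = 0.137) and was higher in 5 of 6 pairs. By the same measure fthl28 went from 35.2 to 181 TPM and fthl29 from 3.61 to 22.7 TPM. Of the 19 tested members of the ferritin and iron handling list, 6 rose and 0 fell, with a median log2 fold change of 0.13 against −0.001 over all genes tested. The sixth was tfr1b, a transferrin receptor that takes up iron, which rose from a median of 32.4 to 42.5 CPM (0.37 ± 0.06, SE, adjusted p = 0.0119) with a difference near 0 in pair 3, and which lost its call without pair 2 or pair 5 (adjusted p = 0.0545 and 0.0654). HMOX1, the heme oxygenase that frees iron from heme, gave 0.20 on the log2 scale (adjusted p = 0.452) and was higher in 3 of 6 pairs. The summed level of the 19 genes lay between 2426 and 2803 CPM in untreated and between 2819 and 3215 CPM in treated larvae, without overlap.

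**Figure D2:**
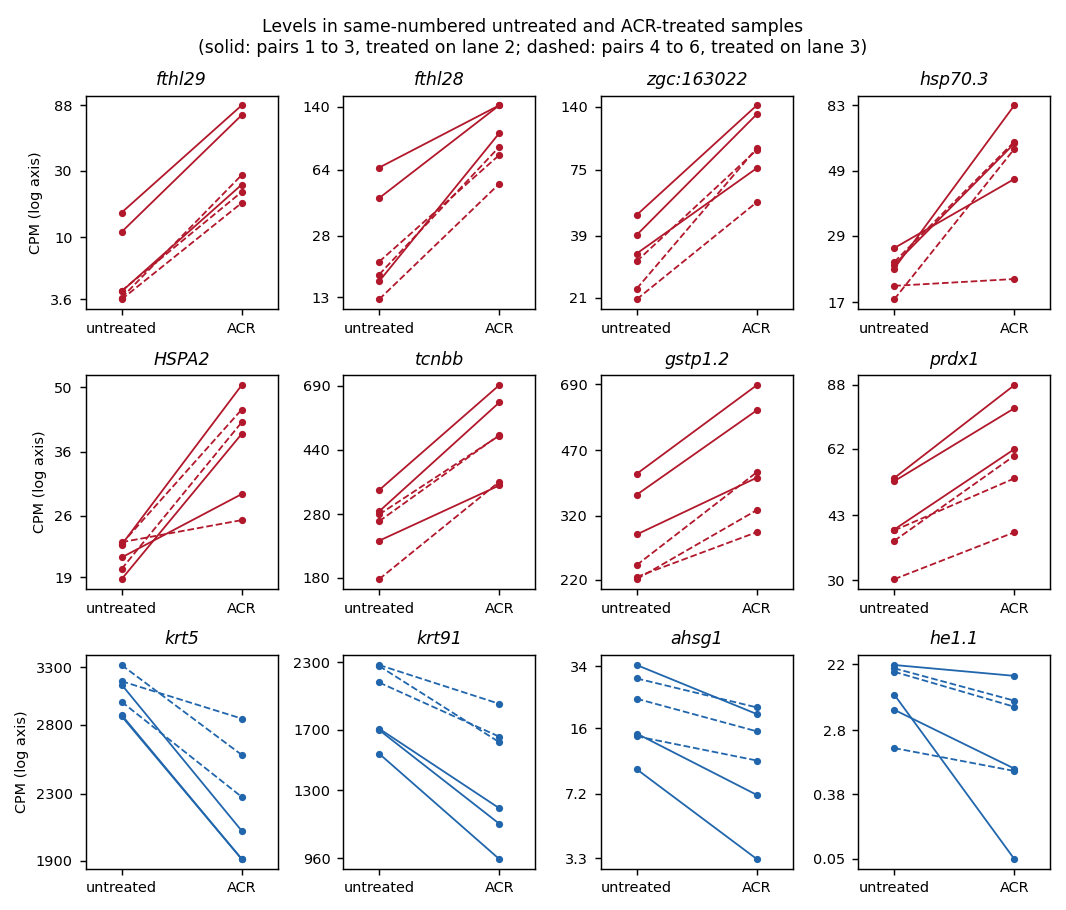
CPM on a log axis of 12 genes in each untreated sample (left) and its ACR-treated partner (right), with 1 line per pair, solid for pairs 1 to 3 and dashed for pairs 4 to 6. All lines of the 8 red genes rise and all lines of the 4 blue genes fall, while the pairs start from different levels: fthl29 begins at 10.9 and 15.0 CPM in pairs 1 and 2 and at 3.59 to 4.13 CPM in the others.

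Inducible chaperones of the HSP70 family formed the next group. Of 16 HSP70 family genes tested, 5 rose and 0 fell. hsp70.3 (ENSDARG00000021924), a stress-inducible cytosolic chaperone, was at 17.4, 22.6 and 26.3 CPM in untreated and at 20.5, 59.8 and 83.1 CPM in treated larvae. Its log2 fold change was 1.26 ± 0.17 (SE, adjusted p = 0.00248). The treated sample 6, at 20.5 CPM, lay within the untreated range, and the within-pair difference was 0.08 in pair 6 against 0.80 to 1.89 in the other 5 pairs.

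Pair 6 also had the smallest difference for HSPA2 and hsp70l. HSPA2 (ENSDARG00000092362) rose from 18.8, 21.7 and 22.7 CPM to 25.4, 40.6 and 50.5 CPM without overlap (log2 fold change 0.83 ± 0.11, SE, adjusted p = 0.0022), by 0.16 in pair 6 and by 0.46 to 1.17 in the others. hsp70.1 rose from 3.49, 5.41 and 6.29 CPM to 6.66, 10.3 and 13.4 CPM without overlap (0.98 ± 0.14, SE, adjusted p = 0.00439), by 0.41 in pair 6 and 0.36 in pair 1. hsp70l rose from a median of 8.12 to 12.1 CPM (0.60 ± 0.10, SE, adjusted p = 0.0167), by 0.03 in pair 6, and lost its call without pair 2 or pair 5 (adjusted p = 0.0738 and 0.0801). HSPA4 (ENSDARG00000004754), whose product acts as a nucleotide exchange factor for HSP70, rose from a median of 52.0 to 71.2 CPM (0.37 ± 0.07, SE, adjusted p = 0.0243). Its call was lost without pair 1, 2 or 5 (adjusted p = 0.0749, 0.0738 and 0.107). A second gene with this symbol, ENSDARG00000018989, was at medians of 98.9 and 99.9 CPM and did not pass (0.07, adjusted p = 0.502). hsp70.1 and hsp70.3 lie near each other in GRCz12tu, with 1 protein-coding gene between them, and the same limit on close copies applies.

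The constitutive members HSPA8, HSPA5 and HSPA9 did not pass. HSPA8 (ENSDARG00000068992), the cognate form, was at a median of 3876 CPM in untreated and 3911 CPM in treated larvae (log2 fold change 0.02, adjusted p = 0.833). HSPA5, the chaperone of the endoplasmic reticulum, was at 193 and 220 CPM (0.25, adjusted p = 0.106, higher in 5 of 6 pairs). HSPA9 was at 194.5 and 218.9 CPM (0.155, adjusted p = 0.198, higher in 6 of 6 pairs). Among 4 HSP90 genes, HSP90AA1 (ENSDARG00000024746) rose from a median of 121 to 143 CPM (0.35 ± 0.06, SE, adjusted p = 0.0156), and hsp90aa1.1 had 0.28 (adjusted p = 0.109). None of 10 small heat shock protein genes passed, although all 10 had a positive log2 fold change, with a median of 0.07. Over the 41 tested members of the heat shock and chaperone list, 5 rose, 0 fell, 11 were higher in all 6 pairs and 38 had a positive log2 fold change, with a median of 0.13. Their summed level, which HSP90AB1 and HSPA8 dominate, lay between 7925 and 9193 CPM in untreated and between 8587 and 9411 CPM in treated larvae.

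Single members of the glutathione and thioredoxin systems rose. Of 22 glutathione S-transferase genes 1 passed (median log2 fold change 0.06), and of 13 peroxiredoxin and thioredoxin genes 2 passed (median 0.06). gstp1.2 (ENSDARG00000104068), a pi-class glutathione S-transferase that conjugates electrophiles, was at 221, 263 and 409 CPM in untreated and at 291, 407 and 687 CPM in treated larvae. The groups overlapped widely, yet every pair rose, by 0.38 to 0.78, and the log2 fold change was 0.61 ± 0.05 (SE, adjusted p = 2.71e-05). prdx1 (ENSDARG00000058734), a thioredoxin-dependent peroxidase, rose from 30.2, 39.6 and 52.7 CPM to 39.1, 60.7 and 87.9 CPM (0.57 ± 0.05, SE, adjusted p = 5.26e-05). txnb, a thioredoxin, rose from a median of 14.5 to 22.5 CPM (0.60 ± 0.06, SE, adjusted p = 0.000355). As with fthl29, untreated and treated samples 1 and 2 were the highest of their groups for gstp1.2, prdx1 and txnb.

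GSR, the glutathione reductase, rose from a median of 32.4 to 42.1 CPM (0.33 ± 0.05, SE, adjusted p = 0.00361). BACH1, a heme-sensitive repressor of Nrf2 target genes, rose from 36.3 to 47.0 CPM (0.35 ± 0.05, SE, adjusted p = 0.00288). cbr1l, a carbonyl reductase-like gene, rose from 85.5 to 105 CPM (0.31 ± 0.04, SE, adjusted p = 0.00389) and was the only 1 of 31 tested aldehyde-clearing enzymes to pass. blvrb, a biliverdin reductase, rose from 19.2 to 24.8 CPM without overlap (0.33 ± 0.05, SE, adjusted p = 0.0125), with its call lost without pair 2 (adjusted p = 0.0596).

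Of the 63 tested members of the Nrf2 and electrophile list, 4 rose (gstp1.2, prdx1, BACH1 and GSR), 0 fell, 12 were higher and 3 lower in all 6 pairs, and the median log2 fold change was 0.07. Several textbook Nrf2 targets did not pass. NQO1 was at a median of 43.9 and 47.5 CPM (0.22, adjusted p = 0.0776), GCLM, a subunit of the enzyme that starts glutathione synthesis, at 14.0 and 17.1 CPM (0.23, adjusted p = 0.0924, higher in 6 of 6 pairs), and TXNRD3, a thioredoxin reductase, at 155 and 168 CPM (0.14, adjusted p = 0.0817, higher in 6 of 6 pairs). SQSTM1, an autophagy receptor, had the largest log2 fold change of the list, 0.63, with medians of 53.8 and 103 CPM, but was higher in 5 of 6 pairs and did not pass (adjusted p = 0.0767). Of 21 selenoprotein genes, selenow2b and selenot2 passed. selenow2b rose from 41.5, 43.4 and 58.2 CPM to 58.5, 62.0 and 93.0 CPM without overlap (0.56 ± 0.04, SE, adjusted p = 2.06e-05), and selenot2 from a median of 67.0 to 74.5 CPM (0.23 ± 0.04, SE, adjusted p = 0.0226), a call lost without pair 2, 5 or 6 (adjusted p = 0.0515 to 0.0847).

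Outside these groups, zgc:163022 and tcnbb rose without overlap. zgc:163022 (ENSDARG00000061481) was at 20.7, 31.4 and 47.8 CPM in untreated and at 54.3, 92.1 and 142 CPM in treated larvae (1.59 ± 0.08, SE, adjusted p = 1.11e-07). tcnbb (ENSDARG00000091996), which encodes a vitamin B12-binding protein of the transcobalamin family, rose from 178, 274 and 332 CPM to 343, 487 and 692 CPM (0.90 ± 0.06, SE, adjusted p = 4.00e-06). At lower levels, C18H15orf48 rose from a median of 3.26 to 5.42 CPM without overlap (1.09 ± 0.15, SE, adjusted p = 0.0031). DAO, the D-amino acid oxidase, rose from 2.49 to 5.23 CPM (1.04 ± 0.13, SE, adjusted p = 0.0022). s100t, a member of the S100 family of calcium-binding proteins, rose from 30.9 to 44.7 CPM without overlap (0.51 ± 0.04, SE, adjusted p = 4.51e-05).

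haus7, a subunit of the augmin complex of the mitotic spindle, differed most in pairs 1 and 2. Its CPM rose from 7.89 and 7.59 to 21.8 and 32.3 in pairs 1 and 2, and from 6.33 to 6.49 up to 7.85 to 10.1 in the other 4 pairs (log2 fold change 1.02 ± 0.19, SE, adjusted p = 0.0232). Its call was lost without pair 1, 2 or 5 (adjusted p = 0.0881, 0.0537 and 0.0655), and its median TPM was 6.28 in untreated and 6.82 in treated larvae, a much smaller difference than in CPM.

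Smaller rises were seen for single genes of mitochondrial protein quality control, tRNA charging, polyamine and heme synthesis and ubiquitin. LONP1, the mitochondrial matrix protease, rose from a median of 24.8 to 30.5 CPM (0.31 ± 0.05, SE, adjusted p = 0.00768). HSPD1, the mitochondrial chaperonin, rose from 110 to 123 CPM (0.26 ± 0.05, SE, adjusted p = 0.0301), and lost its call without any 1 of pairs 1, 2, 3, 5 and 6 (adjusted p = 0.0523 to 0.107). The prohibitins PHB1 and PHB2 (ENSDARG00000017728), scaffold proteins of the inner membrane, rose by 0.17 and 0.23 (adjusted p = 0.0422 and 0.0182); PHB1 passed in no fit that left out a pair, and PHB2 did not without pair 1 or 5 (adjusted p = 0.0558 and 0.0923). These genes belong to a group of 20 prohibitins and mitochondrial proteases and chaperones, put together after the values were seen. It also holds HSPA9, counted above with the HSP70 family. Of the 20 genes, 4 rose (LONP1, HSPD1, PHB1 and PHB2) and 12 were higher in all 6 pairs.

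Of 17 cytosolic aminoacyl tRNA synthetases, YARS1 and VARS1 rose (0.34 and 0.23, adjusted p = 0.0204 and 0.0359), and 16 had a positive log2 fold change. SRM, the spermidine synthase, rose from a median of 19.9 to 23.3 CPM (0.28 ± 0.06, SE, adjusted p = 0.04), and ALAS1, the first enzyme of heme synthesis, from 251 to 300 CPM (0.21 ± 0.04, SE, adjusted p = 0.0182). Both polyubiquitin genes named ubiquitin B rose, UBB (ENSDARG00000002369) from a median of 156 to 178 CPM and ubb (ENSDARG00000093313) from 202 to 216 CPM (0.23 and 0.22, adjusted p = 0.0142 and 0.0451). YARS1, VARS1, SRM, ALAS1, UBB and ubb each lost their call in at least 2 fits without a pair, with the highest adjusted p at 0.181, for ubb without pair 5. VARS1 kept its call only in the fit without pair 4.

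None of the 48 proteasome subunits tested passed, but 46 had a positive log2 fold change and 21 were higher in all 6 pairs, with a median of 0.13. PSMA5, a subunit of the core ring, came nearest, at medians of 38.5 and 44.7 CPM (0.23, adjusted p = 0.0536). Their summed level was higher after ACR in 6 of 6 pairs, by a mean log2 difference of 0.12 ± 0.07 (SD, n = 6 pairs). The 72 tested genes of DNA replication and the cell cycle also had no called member, with 62 positive values, a median of 0.10 and 7 members higher in all 6 pairs. PCNA, the sliding clamp of DNA polymerase, was at medians of 121 and 134 CPM (0.15, adjusted p = 0.205), and the summed level of this list was higher in 4 of 6 pairs.

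ATF3, a transcription factor induced by many stresses, rose from 4.33, 12.2 and 15.2 CPM to 9.30, 14.2 and 21.1 CPM (0.44 ± 0.09, SE, adjusted p = 0.0464). The difference was 0.01 in pair 3 and 1.09 in pair 6, and its call was lost without pair 1, 2, 4 or 5 (adjusted p = 0.0691 to 0.162). It was the only called member both of the 49 genes of the integrated stress and unfolded protein responses, whose median was 0.06, and of the 49 immediate early genes, whose median was −0.08. Of the latter, 38 had a negative log2 fold change, such as fosaa with medians of 8.48 and 5.10 CPM (−0.52, adjusted p = 0.0792, lower in 5 of 6 pairs). None of 28 glucocorticoid and stress axis genes, 47 circadian clock genes or 45 cytochrome P450 and AhR genes passed in either direction.

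Among immune genes, the complement components c3a.2 and c4b rose, c3a.2 from a median of 34 to 45.6 CPM (0.38 ± 0.05, SE, adjusted p = 0.0022) and c4b from 11.7 to 15.0 CPM (0.34 ± 0.06, SE, adjusted p = 0.0283). c4b lost its call without pair 1, 2, 5 or 6 (highest adjusted p = 0.128). They were 2 of 27 complement genes tested, and the family median was 0.03. MPEG1 (ENSDARG00000043093), a pore-forming protein of macrophages, rose from 7.90, 22.2 and 38.3 CPM to 14.3, 40.6 and 59.9 CPM (0.75 ± 0.14, SE, adjusted p = 0.0261). It was lower in pair 3, by 0.25, and higher in the other 5 pairs, and its call was lost without pair 1, 2 or 5 (highest adjusted p = 0.135).

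**Figure D3:**
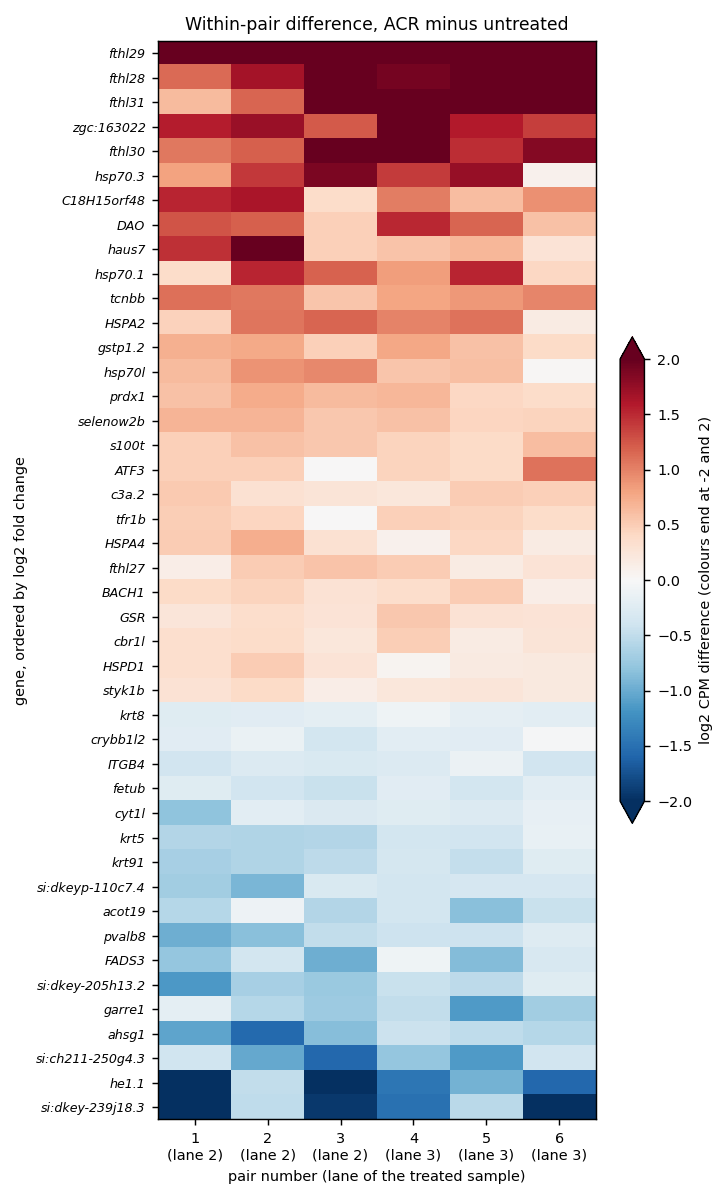
Difference in log2 CPM between the treated and the untreated sample of each pair (columns) for the 44 called genes that the naming rule takes (rows, ordered by log2 fold change), red for higher and blue for lower after ACR. Each row keeps its direction across the 6 pairs, although some cells are near 0, hsp70.3, HSPA2 and hsp70l are near white in pair 6, and he1.1 reaches −5.85 in pair 1, beyond the end of the colour scale.

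Keratins were the main group among the genes that fell. In whole larvae, fewer cells of a type and less RNA per cell cannot be told apart. Of 22 keratin genes tested, 6 fell and 0 rose, 19 had a negative log2 fold change, and the median was −0.15. krt5 (ENSDARG00000058371), a type II keratin of the epidermis, was at 2869, 3066 and 3324 CPM in untreated and at 1908, 2175 and 2848 CPM in treated larvae. The groups did not overlap, and the log2 fold change was −0.45 ± 0.05 (SE, adjusted p = 0.000725), with differences of −0.60 to −0.59 in pairs 1 to 3 and −0.39 to −0.15 in pairs 4 to 6. krt91 (ENSDARG00000036830) was at 1526, 1904 and 2265 CPM in untreated and at 957, 1405 and 1915 CPM in treated larvae (−0.48 ± 0.05, SE, adjusted p = 0.000216).

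The other called keratins were krt15 (−0.30 ± 0.04, SE, adjusted p = 0.00288), cyt1l (−0.33 ± 0.06, SE, adjusted p = 0.0301), krt1-19e (−0.29 ± 0.05, SE, adjusted p = 0.0207) and krt8 (−0.19 ± 0.03, SE, adjusted p = 0.0134). cyt1l, krt1-19e and krt8 lost their call without pair 2 and without pair 5, with adjusted p values of 0.0681 to 0.108, and cyt1l also without pair 3 (adjusted p = 0.0531). krt5 and krt8 are direct neighbours in GRCz12tu, whereas 1 protein-coding gene lies between krt1-19e and cyt1l and 2 lie between cyt1l and krt91. krt4, per length the most abundant keratin at medians of 6810 and 6130 TPM, was lower in all 6 pairs but did not pass (−0.18, adjusted p = 0.0541).

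ITGB4 (ENSDARG00000028507), the integrin of hemidesmosomes that anchors basal keratinocytes, fell from 122, 165 and 188 CPM to 98.9, 130 and 156 CPM (−0.29 ± 0.04, SE, adjusted p = 0.00401). Of the 47 tested epidermis markers, 5 fell and 0 rose, 8 were lower and 4 higher in all 6 pairs, and the median was −0.04. Of the markers that are not keratins, ITGB4 alone passed, while PKP1, a desmosome protein, had −0.19 (adjusted p = 0.135, lower in 6 of 6 pairs) and ANXA1, an annexin, 0.13 (adjusted p = 0.144, higher in 6 of 6 pairs). The summed level of the list, most of it keratin, was 23000, 25030 and 26920 CPM in untreated and 18040, 21230 and 25000 CPM in treated larvae, lower in 6 of 6 pairs by a mean log2 difference of −0.22 ± 0.09 (SD, n = 6 pairs).

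Among the called genes outside the lists, some encode cytoskeletal proteins, and they went both ways. ARPC5, a subunit of the actin-nucleating Arp2/3 complex, rose from a median of 47.0 to 53.9 CPM (0.22 ± 0.04, SE, adjusted p = 0.0244). VIM (ENSDARG00000010008), the intermediate filament protein vimentin, fell from a median of 102 to 91.3 CPM (−0.23 ± 0.04, SE, adjusted p = 0.0143). pfn1, a profilin, fell from 632 to 545 CPM (−0.20 ± 0.03, SE, adjusted p = 0.00976), and actb2, a beta actin, from 4968 to 4413 CPM (−0.18 ± 0.04, SE, adjusted p = 0.0459). ARPC5 lost its call without pair 1, 2 or 5 (adjusted p = 0.0718, 0.11 and 0.111). VIM and pfn1 lost their call without pair 2 (adjusted p = 0.0666 and 0.0646), and actb2 without any 1 of pairs 1 to 5 (highest adjusted p = 0.212).

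The fetuins, secreted liver glycoproteins of the cystatin superfamily, fell together. ahsg1 (ENSDARG00000026764), a fetuin-A, was at 9.72, 19.0 and 34.5 CPM in untreated and at 3.26, 13.1 and 20.6 CPM in treated larvae (−0.76 ± 0.10, SE, adjusted p = 0.00287). Its levels overlapped between the groups, and the difference was −1.55 to −0.85 in pairs 1 to 3 and −0.57 to −0.43 in pairs 4 to 6. fetub, a fetuin-B, fell from 751, 1327 and 1779 CPM to 574, 1137 and 1298 CPM (−0.32 ± 0.04, SE, adjusted p = 0.000954). ahsg2 was lower in all 6 pairs without passing (−0.43, adjusted p = 0.0545). ahsg1 and fetub are direct neighbours in GRCz12tu. They were the only 2 of 43 liver markers that passed, the median of that list was 0.003, and its summed level was 15680 to 20450 CPM in untreated and 14370 to 20090 CPM in treated larvae. fabp10a, the fatty acid-binding protein of larval hepatocytes, was at medians of 421 and 398 CPM (−0.13, adjusted p = 0.294).

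The largest fitted falls among called genes above 1 CPM on average were those of si:dkey-239j18.3 and he1.1. he1.1 (ENSDARG00000023656) is a hatching enzyme, a metalloprotease that the hatching gland releases to digest the chorion. It was at 1.6, 13 and 21.5 CPM in untreated and at 0.0497, 3.33 and 15.3 CPM in treated larvae (−1.49 ± 0.30, SE, adjusted p = 0.0388). Every pair fell, by 0.49 in pair 2 and by 5.85 in pair 1, where the treated level is below that of 3 counts, and the call was lost without any 1 of pairs 3 to 6 (adjusted p = 0.0579 to 0.0983). he1.2, its only other tested family member, was lower in all 6 pairs at medians of 0.607 and 0.172 CPM (adjusted p = 0.0541).

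si:dkey-239j18.3 was at 0.399, 3.36 and 6.69 CPM in untreated and at 0.149, 0.795 and 3.07 CPM in treated larvae (−1.62 ± 0.28, SE, adjusted p = 0.0148) and lost its call without pair 6 (adjusted p = 0.0664). As for he1.1, its lowest untreated level was in sample 5, its largest difference in pair 1 and its smallest in pair 2. ctslb.4, a cathepsin L gene with 2 protein-coding genes between it and si:dkey-239j18.3 in GRCz12tu, also passed (adjusted p = 0.0428), at medians of 0.448 and 0.0495 CPM. It passed in none of the 4 fits without a pair that tested it (adjusted p = 0.0521 to 0.103).

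pvalb8 (ENSDARG00000037790), a parvalbumin that buffers calcium, fell from 158, 175 and 189 CPM to 85.0, 124 and 153 CPM without overlap (−0.57 ± 0.08, SE, adjusted p = 0.00286). The difference was −0.98 to −0.50 in pairs 1 to 3 and −0.42 to −0.26 in pairs 4 to 6. si:dkey-205h13.2 fell from 221, 331 and 357 CPM to 99.3, 216 and 300 CPM (−0.63 ± 0.08, SE, adjusted p = 0.00248). si:dkeyp-110c7.4 fell from a median of 19.4 to 15.4 CPM (−0.48 ± 0.08, SE, adjusted p = 0.00997). Among genes of lipid metabolism, FADS3 (ENSDARG00000019532), a fatty acid desaturase, fell from a median of 10.3 to 8.17 CPM (−0.61 ± 0.11, SE, adjusted p = 0.0175), and acot19, an acyl-CoA thioesterase, from 4.28 to 3.07 CPM (−0.51 ± 0.11, SE, adjusted p = 0.0477).

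si:ch211-250g4.3 fell from a median of 4.82 to 1.84 CPM (−0.90 ± 0.15, SE, adjusted p = 0.0142), and garre1, an effector of Rac GTPases, from 2.30 to 3.92 CPM down to 1.46 to 2.39 CPM (−0.66 ± 0.13, SE, adjusted p = 0.0428). acot19 passed in no fit that left out a pair (adjusted p = 0.0512 to 0.179), and garre1 only in that without pair 1 (highest adjusted p = 0.157). FADS3 lost its call without pair 3 or 5 (highest adjusted p = 0.113) and si:ch211-250g4.3 without pair 2 or 5 (0.0771). The calls of pvalb8, si:dkey-205h13.2 and si:dkeyp-110c7.4 were kept in all 6 such fits.

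Eye and pancreas genes were mostly lower without passing. Of 26 lens markers, crybb1l2, a beta-crystallin, fell from a median of 910 to 797 CPM (−0.20 ± 0.04, SE, adjusted p = 0.0407), and its call was lost without any 1 of pairs 1 to 5 (adjusted p = 0.0719 to 0.16). In all, 24 of the 26 were negative, against 50.4% of all genes tested, with a median of −0.16. The summed lens level was 6504 to 8212 CPM in untreated and 5283 to 7344 CPM in treated larvae, lower in 5 of 6 pairs. None of 44 photoreceptor markers passed, with a median of −0.08. Outside that list, pde6ha, the inhibitory subunit of the cone phosphodiesterase, fell from a median of 140 to 116 CPM without overlap (−0.30 ± 0.05, SE, adjusted p = 0.0167), with its call lost without pair 2 or pair 5 (highest adjusted p = 0.0847). None of 22 exocrine pancreas markers passed, although 20 were negative, with a median of −0.26. Their summed level changed by −0.69 to 0.38 within pairs.

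**Figure D4:**
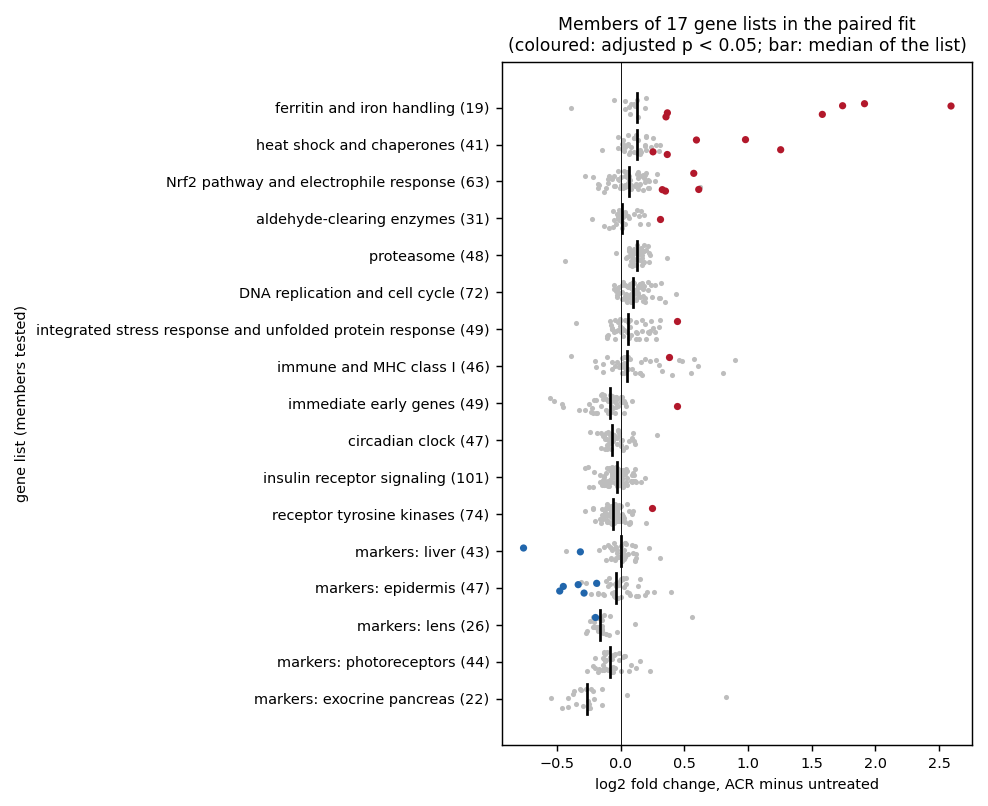
Log2 fold change of ACR-treated against untreated larvae for the tested members of 17 gene lists, with 1 point per gene, coloured where the adjusted p was under 0.05, and a bar at the median of each list. Called genes stand apart from their list in ferritin and heat shock, whereas the lists of the proteasome (median 0.13), lens (−0.16) and exocrine pancreas (−0.26) lie mostly to 1 side of 0, with 0, 1 and 0 called genes.

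The remaining marker lists held no called gene. Among the 60 neuron and glia markers, 47 had a negative log2 fold change, with a median of −0.04. Summed levels of skeletal muscle (98540 to 113300 CPM in untreated, 101200 to 108900 CPM in treated), neuron and glia, extracellular matrix and endothelium markers overlapped between the groups, and none of the 50, 60, 58 and 57 genes in these lists passed. Summed erythroid markers varied most between samples, from 623 to 1231 CPM and from 700 to 1237 CPM, with no called gene among 24. Whether changes in cell type shares had a part in the keratin, lens or pancreas values was not tested.

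The list of insulin receptor signaling held no called gene, where 0.62% of all genes tested were called. INSR (ENSDARG00000011948) was at 93.4, 97.0 and 99.3 CPM in untreated and at 84.2, 86.6 and 91.7 CPM in treated larvae. The groups did not overlap and all 6 pairs were lower, by 0.03 to 0.22 (exact two-sided test over changes of sign, p = 0.0312, the smallest that 6 pairs allow). A shared direction in all 6 pairs alone fixes this p. Of all genes tested, 3.38% were lower in all 6 pairs and 0.139% were lower without overlap. In the model across all genes the log2 fold change was −0.14 ± 0.04 (SE) and did not pass (adjusted p = 0.109). The second insulin receptor gene, INSR (ENSDARG00000071524), was at medians of 35.9 and 35.5 CPM (−0.11 ± 0.05, SE, adjusted p = 0.356) and was lower in 5 of 6 pairs.

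Of 101 tested genes of insulin receptor signaling, 0 passed and 68 were negative, against 50.4% of all genes tested. Of them, 13 were lower and 2 higher in all 6 pairs, against 3.38% and 4.1% of all genes tested, and the median was −0.03. This lean was not particular to the list. Negative values were also seen for 35 of 47 circadian clock, 35 of 44 photoreceptor and 47 of 60 neuron and glia genes. Of the circadian clock genes, 5 were lower and 0 higher in all 6 pairs. Other lists, such as the proteasome, were mostly positive. Of 74 receptor tyrosine kinases, 58 were negative and 6 were lower in all 6 pairs, with a median of −0.06, but the only member that passed, styk1b, rose (0.25 ± 0.05, SE, adjusted p = 0.0227) and lost that call without pair 1, 2 or 5 (adjusted p = 0.0672 to 0.102). ins, the insulin gene, was at medians of 13.4 and 12.2 CPM (−0.13 ± 0.10, SE, adjusted p = 0.627). For akr1a1a the value was 0.15 ± 0.10 (SE, adjusted p = 0.552) and for AKR1A1 0.02 ± 0.06 (SE, adjusted p = 0.921). None of 67 genes of gluconeogenesis, glycolysis and glucose transport and none of 43 of cholesterol and fatty acid synthesis passed.

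The within-pair differences of the called genes were summarised by pair, as a description, since these genes were chosen by the same data. Among the 102 higher genes, the median within-pair difference was 0.52 in pair 1, 0.42 in pair 2, 0.28 in pair 3, 0.44 in pair 4, 0.39 in pair 5 and 0.29 in pair 6. Among the 45 lower genes it lay between −0.40 and −0.35 in pairs 1 to 3 and between −0.29 and −0.26 in pairs 4 to 6. Since the treated samples of pairs 4 to 6 were on another lane than their untreated partners, lane and differences between the pairs cannot be told apart. In a model with a lane term, the ACR effects of both sets of pairs differed for 1 gene at an adjusted p under 0.05. At an unadjusted p under 0.05 they differed for 1112 genes, 4.69% of those tested, where 5% would pass if no gene differed. None of the 147 called genes was that gene. For this lane term 20 of the 147 had an unadjusted p under 0.05, a larger share than the 4.69% of all genes tested.

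Called separately, pairs 1 to 3 gave 105 genes (50 higher, 55 lower) and pairs 4 to 6 gave 42 (33 higher, 9 lower). Of the 147 genes, 21 passed in both, 17 higher and 4 lower, among them fthl28, fthl29, fthl30, fthl31, zgc:163022, tcnbb, gstp1.2, prdx1, selenow2b, s100t, krt91, pvalb8 and ahsg1. Leaving out each pair in turn, 51 of the 147 genes (39 higher, 12 lower) passed every time, and the count of called genes was lowest without pair 2 (62) and pair 5 (63). The 147 genes were chosen on all 6 pairs, so passing again in part of the same samples is no separate support.

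The *akr1a1a−/−* larvae were compared with the same untreated samples, so beside untreated larvae their values are given only as medians. These come from a model of all 18 samples without a block, and all *akr1a1a−/−* samples were on lane 3. fthl29 was at medians of 4.07 CPM in untreated, 25.6 CPM in ACR-treated and 3.39 CPM in *akr1a1a−/−* larvae, and hsp70.3 at 22.4, 59.3 and 18.2 CPM. In a direct test, ACR-treated larvae were higher than *akr1a1a−/−* larvae for fthl29 by 3.30 on the log2 scale (adjusted p = 8.88e-05) and for hsp70.3 by 1.6 (adjusted p = 2.87e-05). For tfr1b the medians were 32.1, 42.1 and 100 CPM, for DAO 2.46, 5.18 and 8.31 CPM and for ahsg1 18.8, 13 and 3.79 CPM. tfr1b was lower in ACR-treated than in *akr1a1a−/−* larvae by −1.24 (adjusted p = 1.24e-05) and ahsg1 higher by 1.28 (adjusted p = 0.0374), whereas the difference for DAO, −0.44, did not pass (adjusted p = 0.345). All of these genes were named for their values in the same treated samples, so these p values are no separate support for their ACR effects. Genotype, treatment and in part lane differ in this direct test and cannot be told apart.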

How the data were processed

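RNA-Seq of whole larvae at 120 hpf was analyzed for 6 untreated and 6 ACR-treated *akr1a1a+/+* samples, with groups, numbers and lanes taken from the labels. Deposited by the authors were an estimated count for every gene, not normalized, and a TPM value, which they scaled to transcript length and library total. The submitters' processing notes name Trim Galore 0.6.4, kallisto 0.4.6 and GRCz11. The labels name an Illumina TruSeq kit with BGISEQ-500 sequencing. The files hold 32520 Ensembl gene IDs, of which 29201 had a symbol in a table of names, and symbols are printed as that table gives them, so many zebrafish genes carry a human symbol.

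Estimated counts were rounded and tested with edgeR 4.0.16 (R 4.3.3, glmQLFit and glmQLFTest) with TMM normalization, filterByExpr on the design, and a model of replicate number and treatment on the 12 samples, which leaves 5 residual degrees of freedom. These functions draw the spread of each gene towards a trend across genes. A p value or standard error therefore does not rest on that gene's own 6 differences alone. The p values were adjusted by Benjamini-Hochberg across the 23715 genes in the fit and read at 0.05. An approximate standard error was taken as the ratio of the log2 fold change to the root of F. CPM was computed from TMM-scaled totals of the 12 samples, and within-pair differences use log2 CPM with a prior count of 2. The block was kept because same-numbered samples correlated above 0.1 in all 6 pairs. Reads carry no molecular identifiers, and limits set by counts cover counting error only. Samples of a group differed by more than counting noise, with a mean chi-square per gene of at least 4.62. The test was also run on counts simulated from the fitted model itself, which cannot show whether that model suits these data.

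The comparison, the gene lists and the tests were chosen with earlier results of these data known. Of 1358 listed symbols, 935 were found as written and 279 after removal of a final a or b. The genes named are the 12 largest rises and 12 largest falls among called genes that moved the same way in 6 of 6 pairs and averaged 1 or more in log2 CPM, the 10 lowest adjusted p values, called members of the lists, and akr1a1a, AKR1A1, ins and the INSR genes. A gene without a symbol was counted and not described. All other genes named, and the gene families, were chosen after their values were seen. Neighbouring genes were found in RefSeq GRCz12tu by symbol, from the order of protein-coding genes by start position. Distances between them were not used. Alternatives were DESeq2 1.42.0 (size factors and Wald test), limma 3.58.1 on log2(TPM + 1) and log2(TPM + 0.1), other filters, the fits without a block or with all 18 samples, a lane term, and each pair left out. A filter on the groups was added after the data were seen, as were the alternatives for the lane term. Promoter sequences were not analysed here.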

Additional observations from a re-analysis of the deposited data

Results flagged for a closer look

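Among the 98 groups of 6 samples examined for the genes named, 3 held a sample set apart from the rest of its group, where about 1 in 20 groups would be by chance. DAO was at 6.34 CPM in untreated sample 6, against 3.38 CPM for the next highest and 1.98 CPM for the lowest sample of that group. HSPA4 (ENSDARG00000004754) was at 46.2 CPM in ACR-treated sample 6, against 66.3 CPM for the next lowest and 77.1 CPM for the highest. fthl27 was at 410 CPM in ACR-treated sample 2, against 247 CPM for the next highest and 155 CPM for the lowest.

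One gene without a symbol, ENSDARG00000114291, differed in its ACR effect between pairs 4 to 6 and pairs 1 to 3, by a fitted log2 difference of −10.5 (adjusted p = 0.00765 for the lane term of edgeR's quasi-likelihood test). It was at 0 CPM in 4 of 6 untreated samples and at 4.53 and 10.6 CPM in treated samples 1 and 3, so the fitted size depends on the prior count and is no bound. At 10 or more counts in every sample it was not tested.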

How the results depend on the processing

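All 147 calls kept their direction in every alternative that tested them. This was largely set in advance, since 138 of them moved the same way in all 6 pairs and the alternatives use the same samples. DESeq2's size factors, at least 10 counts in every sample and the filter on the groups changed the count by less than 1.5 times (147, 156 and 137 genes). With no filter 226 genes passed, 79 of them lower. The replicate block decided most calls: with no replicate block, 1 gene passed in the same 12 samples (1 higher, 0 lower) and 6 in all 18 (6 higher, 0 lower), against 32 (25 higher, 7 lower) with the replicate block in all 18 samples, where the *akr1a1a−/−* samples also enter the block. Against the main split of 102 higher and 45 lower genes, the ACR effect in the fit with a lane term gave 74 and 56. Of these 130 genes, 69 were among the 147. In that fit the ACR effect is the one in pairs 1 to 3, since only treated samples 4 to 6 were on lane 3. DESeq2's Wald test gave 74 and 58. Called separately, pairs 1 to 3 gave 50 and 55, while pairs 4 to 6 gave 42 genes (33 higher, 9 lower). limma gave 41 genes (34 higher, 7 lower) on log2(TPM + 1) and 43 (36 higher, 7 lower) on log2(TPM + 0.1). Leaving out 1 pair in turn gave 62 to 189 genes, 44 to 130 higher and 18 to 73 lower. The difference between the sets of pairs held for 1 gene, for 0 with at least 10 counts, with limma at either pseudocount and with the filter on the groups (1021 to 1161 genes at an unadjusted p under 0.05), and for 1 to 22 without a pair, the most without pair 3. The causes of these shifts were not tested. ins turned to 0.029 in pairs 4 to 6, and AKR1A1 to −0.016 with the lane term, −0.018 in pairs 1 to 3 and −0.012 and −0.018 without pairs 1 and 5 (−0.018 to 0.064 over the fits without a pair). The promoter motif search was not run.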
